A study of Eurytemora affinis with 18 samples.

Results

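Trypsin, chymotrypsin and cathepsin L genes of the copepod *Eurytemora affinis* were followed through all 18 libraries of the count table. The 5 genes, of 23728 counted, were chosen by identifier. They are the trypsin-1-like genes LOC111716204 and LOC111703434, the chymotrypsin-like protease CTRL-1 gene LOC111707394, the chymotrypsinogen A-like gene LOC111701514 and the cathepsin L1-like gene LOC111697677. The study listed LOC111716204 as changed in females at 50 µg/L and the other 4 genes as changed in males at 50 µg/L, so the values in those libraries chose the genes and are given without a test.

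Adults were exposed for 72 h to nominal concentrations of tebufenozide (TEB), which acts as an agonist of the ecdysone receptor and is used against insects. The 6 groups were females as controls and at 0.5 and 50 µg/L and males as controls and at 0.5 and 50 µg/L, with 3 libraries each. All groups, controls included, received acetone as the solvent and were fed with the alga *Rhodomonas salina* throughout. Each library was made from whole bodies of 30 pooled copepods of 1 sex, females without eggs, caught in the Seine estuary, so gut, integument and gonad were not separated.

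Trypsins and chymotrypsins are secreted serine endopeptidases that are made as inactive zymogens. Trypsin cuts proteins after lysine and arginine, whereas chymotrypsin cuts mainly after large hydrophobic residues. Cathepsin L is a cysteine endopeptidase of the papain family, lysosomal in most animals and also a digestive enzyme of many crustaceans. Proteases of these families act in food digestion and are found in the fluid that degrades the old cuticle at a moult in insects, which is under the control of ecdysteroids. Copepods do not moult again once they are adult.

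Libraries held between 7983412 and 17114866 counts in females and between 3882407 and 10468479 in males. Reads of 150 bp came from a separate flow cell that held all libraries of the 50 µg/L groups and female 0.5 µg/L replicate 3, whereas the remaining libraries had reads of 75 bp. In males, exposure to 50 µg/L thus cannot be told apart from read length and flow cell. In females the 2 are separated by that single library at 0.5 µg/L, on which every fit with flow cell as a covariate rests, also for males. Levels are given as CPM, counts scaled to a common library size with trimmed mean of M-values (TMM) factors, as mean ± SD over 3 libraries. They compare a gene across libraries, not genes with each other, since gene lengths were not used here. The quasi-likelihood (QL) test of edgeR was fitted to the 9 libraries of each sex, or to all 18 for the comparison of sexes. Genes were called where the adjusted p was 0.05 or lower and the level differed 2-fold or more. SE stands for the standard error of a log2 fold change. All 5 genes passed the filter on low counts in every fit.

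In males, the 4 genes listed there were at their highest mean level at 50 µg/L, and the control had the lowest mean of the male groups for each of them. In such bulk samples, more cells of a type and more RNA per cell cannot be told apart. The trypsin-1-like gene LOC111703434 was at 4.77, 3.82 and 5.49 CPM in the male controls, 5.48, 6.93 and 8.34 CPM at 0.5 µg/L and 16.7, 13.3 and 15.1 CPM at 50 µg/L. All 3 libraries at 50 µg/L lay above all male libraries at the other levels, while the control and 0.5 µg/L overlapped. The means were 15 ± 1.73 CPM at 50 µg/L and 4.7 ± 0.838 CPM in controls (SD, n = 3), a ratio of 3.21, and the log2 fold change was 1.68 (SE 0.35). The ratio between the concentrations, 50 over 0.5 µg/L, was 2.18.

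CTRL-1 (LOC111707394), a protease of the chymotrypsin type, had 3 separate male groups. It was at 11.8, 7.45 and 8.83 CPM in controls, 12.6, 11.9 and 16.4 CPM at 0.5 µg/L and 24.6, 21.5 and 25.9 CPM at 50 µg/L. No male library of a group overlapped those of the group below, although control replicate 1 was close to replicate 2 at 0.5 µg/L. The log2 fold changes were 0.54 (SE 0.31) at 0.5 µg/L and 1.36 (0.31) at 50 µg/L.

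The chymotrypsinogen A-like gene LOC111701514, named for the zymogen of a chymotrypsin, was at 15.4, 6.47 and 8.62 CPM in male controls, 18.5, 21.3 and 16.7 CPM at 0.5 µg/L and 31.9, 18.3 and 27.7 CPM at 50 µg/L. Both concentrations lay above the controls and overlapped each other, since 50 µg/L replicate 2 was below a pair of libraries at 0.5 µg/L. Its log2 fold change was 0.89 (SE 0.37) at 0.5 µg/L, and without male control replicate 1 it was 1.32. At 50 µg/L it was 1.36 (0.37), and 2.38 (0.89) with flow cell as a covariate.

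The cathepsin L1-like gene LOC111697677 was at 111, 95.5 and 91.2 CPM in male controls, 180, 119 and 120 CPM at 0.5 µg/L and 161, 127 and 383 CPM at 50 µg/L. Every exposed male library was above every male control, but the mean of 223 ± 139 CPM at 50 µg/L (SD, n = 3) rested on replicate 3. Without it the log2 fold change was 0.54, in place of 1.17 (SE 0.35) with all libraries. The spread of this group was far wider than counting error, as its coefficient of variation was 62.3% and counting alone would give 3.71%.

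In the fit of the males at 50 µg/L, 128 of 17492 genes were called, which is 0.732%, 84 as higher and 44 as lower (736 and 1239 by DESeq2). Among them was 1 of the 4 listed genes, LOC111703434, while DESeq2 and the likelihood ratio test called all 4. Its call was lost when any 1 of the 6 libraries other than control replicate 1 was left out. These libraries chose the genes, so nothing is read from that count. The QL test of edgeR called 0% of 17492 genes in males exposed to 0.5 µg/L, while 693 genes had an unadjusted p under 0.05, and DESeq2 called 3 and the likelihood ratio test 7. The 4 genes share the male controls between the comparisons of both concentrations, and those controls took part in their choice.

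**Figure D1:**
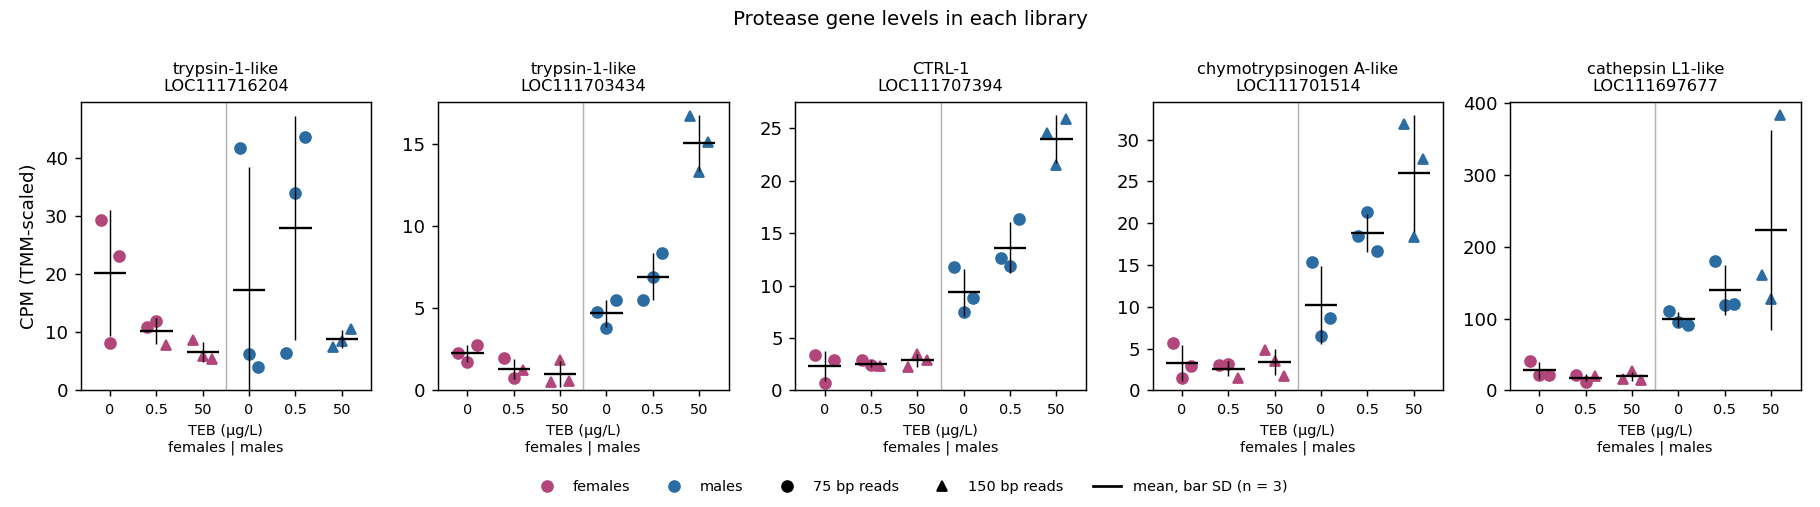
Level of each gene (CPM, TMM-scaled, linear axes from 0) in the 18 libraries, by TEB concentration, females left of the line and males right of it. Points are libraries (circles 75 bp, triangles 150 bp), horizontal lines the means and vertical bars the SD (n = 3). The 3 male libraries at 50 µg/L lie above all other libraries for LOC111703434 (13.3 to 16.7 CPM) and CTRL-1 (21.5 to 25.9 CPM), and LOC111716204 ranges from 3.99 to 41.7 CPM within the male controls.

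Male libraries differed in the RNA of 4 genes, called the yolk and oocyte genes below. The vitellogenin-like gene LOC111704362, a yolk protein precursor, the vasa-like helicase genes LOC111702462 and LOC111703234, which mark germ cells, and the exuperantia-1-like gene LOC111705270, named for a maternal protein of *Drosophila*, were summed for this. The study listed all 4 of them in males at 50 µg/L. Their sum was 64.2, 38.1 and 72.6 CPM in males at 50 µg/L, against 93.6, 419 and 461 CPM in male controls. In males at 0.5 µg/L it was 56.9, 334 and 314 CPM, and in the 9 female libraries it ran from 725 to 1040 CPM. The vasa-like genes made up most of the sum in every male library. In replicate 2 of the males at 0.5 µg/L they were at 105 and 174 CPM, and vitellogenin-like was at 6.67 CPM. In male control replicates 1, 2 and 3 vitellogenin-like was at 1.34, 28.8 and 41.5 CPM, against 130, 59.3 and 85.2 CPM in the female controls. Whether male control replicates 2 and 3 held RNA of eggs or females was not tested. The study describes vasa as a gonad gene of adult crustaceans that rises in spermatogenesis. The sum is thus not specific to RNA of eggs or females. Vitellogenin-like had 0 counts in replicate 1 of the males at 0.5 µg/L, where 3 counts would be 0.484 CPM, and in replicates 1 and 2 at 50 µg/L, where they would be 0.697 and 0.885 CPM.

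The 4 protease genes were also set against male control replicate 1 alone, the control with the lowest sum. The log2 fold change at 50 µg/L was then 1.61 for LOC111703434, 0.99 for CTRL-1, 0.72 for chymotrypsinogen A-like and 0.96 for cathepsin L1-like. At 0.5 µg/L it was 0.49 for LOC111703434, 0.16 for CTRL-1, 0.25 for chymotrypsinogen A-like and 0.29 for cathepsin L1-like against that control, beside 0.55, 0.54, 0.89 and 0.48 with all controls. For LOC111703434 the differences were thus nearly as large without the other controls. For CTRL-1, chymotrypsinogen A-like and cathepsin L1-like they were smaller. Replicate 1 was the highest male control for each of these genes with smaller differences, so the decrease follows from the choice of that control. This comparison was chosen after the data were examined and rests on a single control library. Whether RNA of the yolk and oocyte genes has a part in the smaller values was not tested.

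**Figure D2:**
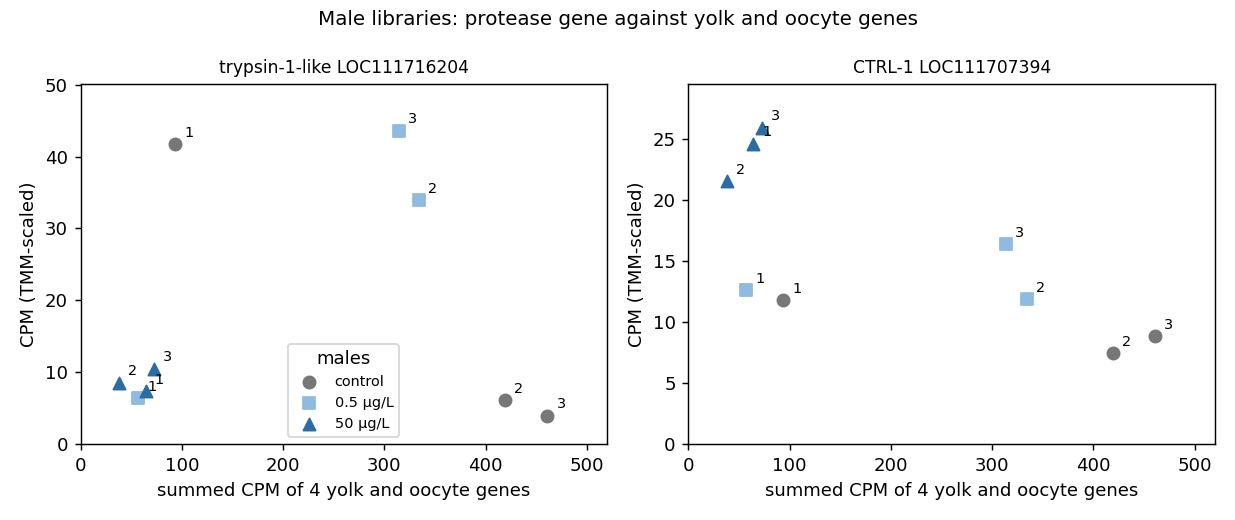
CPM of LOC111716204 (left) and CTRL-1 (right) in the 9 male libraries against the summed CPM of 4 yolk and oocyte genes, with points labelled by replicate and both axes linear from 0. The 3 libraries at 50 µg/L have sums of 38.1 to 72.6 CPM, and control replicate 1, at 93.6 CPM, has 11.8 CPM of CTRL-1. LOC111716204 is at 41.7, 33.9 and 43.6 CPM in 3 libraries whose sums run from 93.6 to 334 CPM.

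In females, which took no part in the choice of these 4 genes, none was called at either concentration. At 0.5 µg/L the test called 0% of 15555 genes (468 had an unadjusted p under 0.05, and DESeq2 called 7 and the likelihood ratio test 5), and at 50 µg/L it called 0.00643% (1 gene, with 1943 at an unadjusted p under 0.05, against 143 by DESeq2 and 133 by the likelihood ratio test). None of the 4 genes had an unadjusted p under 0.05 at either concentration by the QL test, and neither DESeq2 nor the likelihood ratio test called any of them. DESeq2 gave 1 of the 4, cathepsin L1-like, an unadjusted p under 0.05 at 0.5 µg/L.

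Female levels of LOC111703434 were low, with 2.3, 1.72 and 2.75 CPM in controls, 1.97, 0.754 and 1.26 CPM at 0.5 µg/L and 0.54, 1.88 and 0.579 CPM at 50 µg/L. Replicate 2 at 50 µg/L lay within the range of the controls, and the other libraries at 50 µg/L were below them. The log2 fold changes were -0.74 (SE 0.52) at 0.5 µg/L and -1.10 (0.55) at 50 µg/L, with adjusted p = 1 and 0.439 in the edgeR QL test. At 50 µg/L replicates 1 and 3 had 5 counts each, and the exact 95% Poisson interval of replicate 1 ran from 0.175 to 1.26 CPM, which covers counting error only. Without replicate 2 at 50 µg/L the log2 fold change was -1.95, still not called.

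CTRL-1 was at 3.4, 0.717 and 2.87 CPM in female controls, 2.93, 2.39 and 2.34 CPM at 0.5 µg/L and 2.27, 3.47 and 2.89 CPM at 50 µg/L. The exposed female libraries all lay inside the range of the controls or just above it. The log2 fold change at 50 µg/L was 0.34 (SE 0.47, adjusted p = 0.796 in the same edgeR test), and an interval of 2 standard errors ran from -0.60 to 1.28. The difference between the sexes in the response of CTRL-1 at 50 µg/L was not tested, since the male libraries chose the gene.

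Chymotrypsinogen A-like was at 5.65, 1.43 and 2.87 CPM in female controls, 3.05, 3.14 and 1.53 CPM at 0.5 µg/L and 4.86, 3.47 and 1.74 CPM at 50 µg/L. Its libraries overlapped at all levels, and the log2 fold change at 50 µg/L was 0.05 (2 standard errors, -0.96 to 1.07, adjusted p = 0.979 in the edgeR QL test). Leaving out 1 library gave -0.32 to 0.67, and with flow cell as a covariate it was 1.01 (SE 0.88), none of them called. Cathepsin L1-like was at 41.3, 21.7 and 20.9 CPM in female controls, 21, 11.6 and 20.5 CPM at 0.5 µg/L and 16.1, 27.1 and 15 CPM at 50 µg/L. Control replicate 1 stood above all other female libraries for this gene. The log2 fold changes were -0.64 (SE 0.32) at 0.5 µg/L and -0.48 (0.32) at 50 µg/L, with adjusted p = 1 and 0.567 in the same edgeR test, and without control replicate 1 they were -0.26 and -0.09.

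Females also had lower levels of these 4 genes than males, at every concentration. The 4 genes were listed in males, however, and such a choice can favour genes with more counts in that sex, also at 0.5 µg/L. How far this enters the sex difference was not tested. At 0.5 µg/L, where no library took part in the choice of the 5 genes, LOC111703434 averaged 1.33 ± 0.613 CPM in females and 6.92 ± 1.43 CPM in males (SD, n = 3 each), a log2 fold change of -2.37 (SE 0.45, adjusted p = 0.000169 in the edgeR QL test). CTRL-1 averaged 2.55 ± 0.329 CPM in females and 13.6 ± 2.44 CPM in males, a log2 fold change of -2.41 (0.40, adjusted p = 5e-05 by edgeR). For chymotrypsinogen A-like the means were 2.57 ± 0.903 CPM in females and 18.8 ± 2.34 CPM in males, a log2 fold change of -2.85 (0.48, adjusted p = 5.5e-05 by edgeR). Cathepsin L1-like differed most, with 17.7 ± 5.31 CPM in females and 139 ± 34.9 CPM in males, a log2 fold change of -2.98 (0.41, adjusted p = 1.07e-05 by edgeR).

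No female library reached a male library of the same concentration for any of these 4 genes. The share of all genes that separated in this way was not counted, so this is not read as a trait of the proteases. A difference between the sexes was common, as 61.5% of 18110 genes were called at 0.5 µg/L, 40.8% as lower and 20.7% as higher in females, against 4 of the 5 protease genes called, all lower. The median log2 fold change was -2.41 over the 5 genes and -0.54 over all genes tested, or -0.24 when only these 2 groups were fitted, and the values of the 4 genes lay below both medians of all genes. The 6 other genes from the study's lists, described below, had a median of -2.36, and all 6 were called, stubble-like as higher in females. A shift of this size is thus not particular to the 5 genes. Each of the 4 protease genes stayed called under each of the 13 alternatives run for it, with adjusted p of at most 0.00177.

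The size of the sex difference varied with concentration. The ratio of the male to the female mean of LOC111703434 was 2.08 in controls, 5.2 at 0.5 µg/L and 15.1 at 50 µg/L. For cathepsin L1-like it was 3.55, 7.88 and 11.5 in the same order, for CTRL-1 4.01, 5.34 and 8.35, and for chymotrypsinogen A-like 3.06, 7.33 and 7.73. The male libraries that chose these genes enter the ratios at 0 and 50 µg/L, which are a description.

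**Figure D3:**
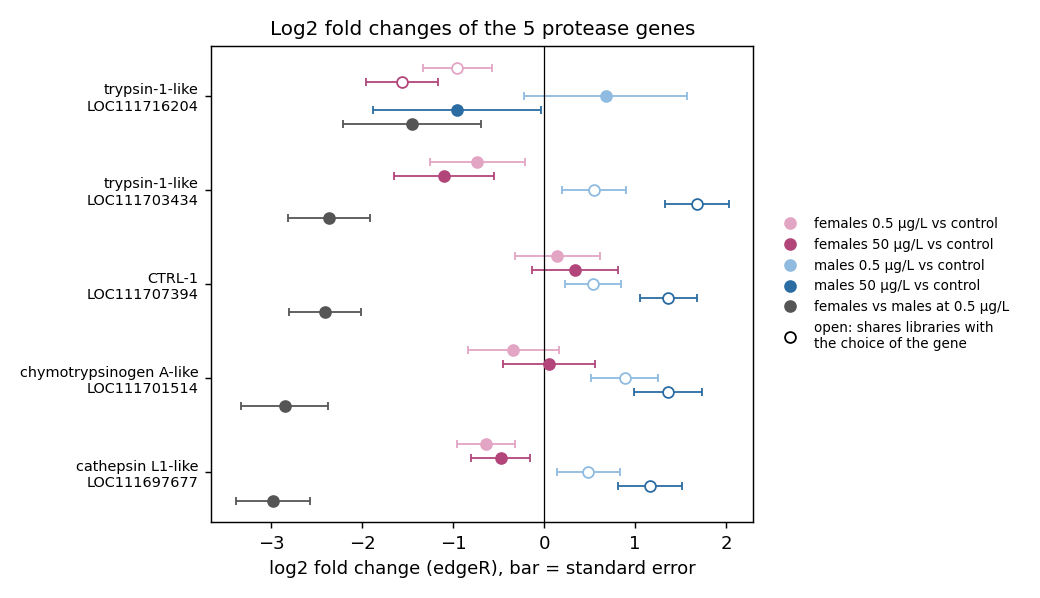
Log2 fold changes of the 5 genes from edgeR, with bars of 1 standard error, for each concentration against the control of the same sex and for females against males at 0.5 µg/L. Filled points are comparisons that share no library with the choice of the gene and open points share libraries with it. In males at 50 µg/L the 4 genes chosen there lie between 1.17 and 1.68, their filled female points lie between -1.10 and 0.34, and females against males lie between -2.98 and -1.45 for all 5 genes.

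The other trypsin-1-like gene, LOC111716204, had a different pattern. It was the member listed in females, where it was at 29.3, 8.18 and 23.1 CPM in controls, 10.9, 12 and 7.75 CPM at 0.5 µg/L and 8.64, 5.92 and 5.33 CPM at 50 µg/L. Control replicate 2 was within the range of the exposed libraries, so neither concentration separated from the controls, and the other controls stood above every exposed library. The log2 fold changes were -0.95 (SE 0.38) at 0.5 µg/L and -1.56 (0.39) at 50 µg/L, and both rest on the controls that chose the gene. At 50 µg/L DESeq2 and the likelihood ratio test called it and the QL test did not. Replicate 3 at 0.5 µg/L, read at 150 bp, was the lowest of its group and below female control replicate 2.

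Males took no part in the choice of LOC111716204. It was at 41.7, 6.18 and 3.99 CPM in male controls, 6.45, 33.9 and 43.6 CPM at 0.5 µg/L and 7.44, 8.56 and 10.5 CPM at 50 µg/L. Libraries of the same group fell far apart, with a ratio of highest to lowest of 10.5 in controls and 6.76 at 0.5 µg/L but 1.42 at 50 µg/L. Counting error was small beside this, since the coefficient of variation was 123% in male controls and counting would give 12.4%. The biological coefficient of variation in males, the spread that edgeR estimates beyond counting, was 0.729 for this gene, above that of 95.2% of the genes tested, whereas it lay between 0.287 and 0.335 for the other 4 genes and had a median of 0.351 over all genes.

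Neither male comparison of LOC111716204 was larger than this spread. The log2 fold changes were 0.68 (SE 0.89, adjusted p = 0.942 in the edgeR QL test) at 0.5 µg/L and -0.96 (0.92, adjusted p = 0.522) at 50 µg/L, and intervals of 2 standard errors ran from -1.11 to 2.46 and from -2.81 to 0.89. Male control replicate 1 decided the direction at 50 µg/L, as the log2 fold change was 0.82 without it. At 0.5 µg/L it was 2.45 without that control (adjusted p = 0.0972 by edgeR), 0.17 to 0.49 without any 1 of male control replicates 2 and 3 and 0.5 µg/L replicates 2 and 3, and 1.14 without 0.5 µg/L replicate 1. The 3 high male libraries had 93.6, 334 and 314 CPM of the yolk and oocyte genes, and the low ones had sums at both ends, from 38.1 to 461 CPM. A part of this RNA in the spread was not tested.

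Between the sexes at 0.5 µg/L, LOC111716204 averaged 10.2 ± 2.21 CPM in females and 28 ± 19.3 CPM in males (SD, n = 3 each). The groups overlapped through male replicate 1, and the log2 fold change of -1.45 (SE 0.76) was not called (adjusted p = 0.0937 in the edgeR QL test). Without male 0.5 µg/L replicate 1 it was -1.89 and called, with adjusted p = 0.0293. Ordered by mean over the 6 groups, the gene ran through males at 0.5 µg/L (28 CPM), female controls (20.2), male controls (17.3), females at 0.5 µg/L (10.2), males at 50 µg/L (8.85) and females at 50 µg/L (6.63), and every neighbouring pair in this order overlapped.

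The order of the group means of the other 4 genes began alike, with males at 50 µg/L, males at 0.5 µg/L and male controls. Below these came the 3 female groups, which overlapped each other for each gene. In each case the lowest male group did not overlap the highest female group, a separation that was not counted over all genes. For cathepsin L1-like, the mean of 99.3 CPM in male controls was followed by 28 CPM in the female controls, the highest female group.

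Over the 9 male libraries, log2(CPM + 1) of the 4 genes moved together with Pearson correlations from 0.624 to 0.958, highest between LOC111703434 and CTRL-1. All 4 were chosen for the same contrast in these libraries, so this is a description. With the group means removed, the correlation of that pair was 0.603, and that of LOC111703434 with cathepsin L1-like was -0.137. CTRL-1 had between 1.47 and 2.47 times the CPM of LOC111703434 in a male library and between 0.417 and 5 times in a female library, where both genes had few counts. In females the correlations among these 4 genes ran from 0.124 to 0.743.

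The gene most like LOC111716204 over the 18 libraries was LOC111704533 (Pearson r of log2(CPM + 1) = 0.928), followed by LOC111708347 (0.915), and neither has a name in the sources used here. LOC111704533 was at 5.81, 0.588 and 0.754 CPM in male controls, 0 (no count, where 3 counts would be 0.484 CPM), 6.67 and 11 CPM in males of the 0.5 µg/L group and 0.232, 0.885 and 0.405 CPM in males at 50 µg/L. The same 3 male libraries were high for both genes, and female control replicates 1 and 3 were the highest female libraries for both (5.65 and 3.26 CPM of LOC111704533). Only 6 of 18110 genes reached a correlation of 0.8 with LOC111716204, a limit chosen after the values were seen.

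**Figure D4:**
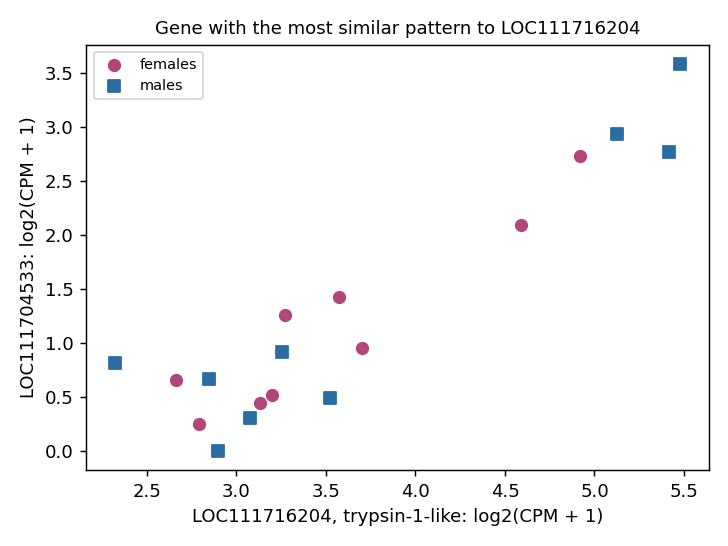
Level of LOC111704533 against that of the trypsin-1-like gene LOC111716204 in the 18 libraries, both as log2(CPM + 1), with females as circles and males as squares. The 3 male libraries at the upper right have 33.9 to 43.6 CPM of LOC111716204 and the 2 highest female libraries have 23.1 and 29.3 CPM.

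For the other 4 genes between 5527 and 6314 genes reached that correlation. Every male library lay above every female library for each of the 4, a separation that was not counted over all genes. The most similar were the scratch 2-like transcriptional repressor LOC111708725 (0.966) and the collagen alpha-1(XVIII) chain-like LOC111713429 (0.965) for LOC111703434, and LOC111704282 (0.988) and LOC111698152 (0.984) for CTRL-1. They were LOC111705163 (0.978) and LOC111717635 (0.976) for chymotrypsinogen A-like, and LOC111702022 (0.987) and LOC111710819 (0.986) for cathepsin L1-like.

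Beside these 5 genes, 6 genes were taken from the study's lists by their names. The words sought were trypsin, cathepsin, carboxypeptidase, aminopeptidase N, serine protease or proteinase and those of protease inhibitors, and they found 4 peptidases and a pair of genes named for inhibitors. Other peptidases of those lists, such as neprilysins, a calpain, a furin-like protease and metalloproteinases, were outside these words. The lists were made on these libraries, so the number and direction of the 6 genes are not independent of them. In males at 50 µg/L, 1 of the 6 was called by the edgeR QL test, against 0.732% of all genes, and the median log2 fold change of the 6 was 0.09, beside 0.02 over all genes. With DESeq2 or the likelihood ratio test, 4 of the 6 were called there. These tools also called far more of all genes, 1975 of 17492 by DESeq2, and the 6 were listed on these libraries. In the other comparisons with the controls the QL test called none of them with all libraries, while LOC111715307 was called in females at 50 µg/L by DESeq2, by the likelihood ratio test and with only the groups compared.

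Neurotrypsin-like LOC111703433, named for a serine protease of the mammalian nervous system, was at 31.9, 44.9 and 43.9 CPM in males at 50 µg/L, against 20.6, 11.1 and 13.1 CPM in male controls. In females it was at 4.97, 4.32 and 1.74 CPM at 50 µg/L, against 6.7, 2.44 and 4.28 CPM in controls (log2 fold change -0.24, SE 0.46, adjusted p = 0.865 in the edgeR QL test). Its male libraries at 50 µg/L lay above all other libraries, like those of LOC111703434, and its female groups overlapped.

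Aminopeptidase N-like LOC111695813 is named for an enzyme that trims residues from the amino end of peptides, in the gut among other places. It was at 89.5, 51 and 144 CPM in males at 50 µg/L, against 52.6, 32.7 and 21.2 CPM in male controls. The female libraries, which did not choose it, had 5.72, 8.36 and 6.02 CPM at 50 µg/L, against 18.3, 9.68 and 10.2 CPM in controls. All female libraries at 50 µg/L were below all female controls, but with a log2 fold change of -0.87 (SE 0.28, unadjusted p = 0.00835 and adjusted p = 0.242 in the edgeR QL test) the gene was not called.

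Carboxypeptidase B-like LOC111703255 is named for an enzyme that removes basic residues from the carboxyl end, where trypsin leaves them, and was listed in females at 0.5 µg/L. There it was at 4.79, 4.77 and 5.32 CPM, against 12.7, 10 and 10.1 CPM in female controls. In males at 50 µg/L it was at 45.1, 47.2 and 68.2 CPM, against 33.5, 40.3 and 25.7 CPM in male controls, and these groups did not overlap. The log2 fold change in those males was 0.69 (SE 0.26, unadjusted p = 0.0212 and adjusted p = 0.127 in the edgeR QL test), which is no call.

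The serine proteinase stubble-like LOC111706413, named for a membrane protease of *Drosophila* that shapes appendages and bristles, was the gene called in males at 50 µg/L. It was at 1.39, 0.885 and 2.03 CPM there, against 6.71, 12.8 and 19.6 CPM in male controls. The lowest control was replicate 1, which also had the lowest sum of the yolk and oocyte genes. In contrast to the peptidases above, it was higher in females, with 34.4 ± 2.89 CPM in females and 10.1 ± 5.14 CPM in males at 0.5 µg/L (SD, n = 3 each, log2 fold change 1.75, SE 0.38, adjusted p = 0.000572 in the edgeR QL test). Against male control replicate 1 alone its log2 fold change at 50 µg/L was -2.19, in place of -3.11 (SE 0.58) with all controls. Its call was lost when any 1 of male control replicates 2 and 3 or of the 50 µg/L replicates was left out.

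Serpin B10-like LOC111700682, of the serine protease inhibitor family, was nearly restricted to male libraries. It had 6, 1 and 0 counts in females at 0.5 µg/L, against 871, 578 and 597 counts in males of that group, and the 9 female libraries held 0 to 6 counts each. In males it was at 31.9, 44.6 and 29.2 CPM at 50 µg/L, against 118, 63.7 and 63.1 CPM in controls, in the libraries that chose it. The log2 fold change was -1.22 (SE 0.33) and turned to 2.95 (SE 2.42) with flow cell as a covariate, a term that rests on female libraries with almost no counts of this gene. The gene LOC111715307, named for a reversion-inducing protein with Kazal motifs, which in mammals inhibits matrix metalloproteinases, was at 8.75, 13.9 and 13.5 CPM in females at 50 µg/L, against 36.3, 29.7 and 31.4 CPM in female controls. Female replicate 3 at 0.5 µg/L, the library of that group read at 150 bp, had 13.5 CPM of it, whereas the replicates read at 75 bp had 28.7 and 34.2 CPM. The log2 fold change in females at 50 µg/L was -1.38 (SE 0.29), and with flow cell as a covariate it was -0.21 (SE 0.47).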

How the data were processed

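The authors deposited raw counts per gene from featureCounts, made from reads that Trimmomatic had trimmed (Phred above 30, at least 36 bp left) and STAR had placed on the Eaff_2.0 assembly. The strand setting and the treatment of reads with several matches are not given in the sources used here, so reads may be shared among similar protease genes. The tests were run with edgeR 4.0.16 in R 4.3.3 (default filter on low counts, TMM, robust quasi-likelihood or QL test, two-sided, Benjamini-Hochberg adjustment over all genes tested), with DESeq2 1.42.0 as an alternative. DESeq2 was run on the genes kept by the same filter. Standard errors of edgeR are the log2 fold change over the root of the F statistic.

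The genes, lists and tests were chosen with earlier results of these data known. Gene names are those of the study's lists, as no annotation was used here. The genes named are the 5 members, the peptidases and inhibitors that fixed words of a name found in those lists, and the 2 genes most correlated with each member. A list of female-biased genes was also planned for the male libraries and held 5 genes, whose median in male controls was 0, 16.7 and 12.6% of the female control mean. Exposed males, by replicate, had 0%, 2.48%, 3.1% (0.5 µg/L group) or 0%, 0%, 0.69% (50 µg/L group). Replicates 2 and 3 of the 0.5 µg/L group thus lay far below control replicates 2 and 3 on this list. The sums of the yolk and oocyte genes differed less between these libraries, with 334 and 314 CPM against 419 and 461 CPM.

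No replicate was a copy of another (chi-square per degree of freedom of at least 4.58). Same-numbered male controls and males at 0.5 µg/L deviated together (correlations of 0.689, 0.354 and 0.458), which met the limit of 0.1 set for a pairing. Replicates 2 and 3 at 0.5 µg/L were about as close to the other of controls 2 and 3, however. Replicate 2 correlated with control 3 at 0.42 and replicate 3 with control 2 at 0.371. Replicate 1 correlated with controls 2 and 3 at -0.474 and -0.573, and replicates 2 and 3 with control 1 at -0.509 and -0.546. The replicate 1 libraries of both groups thus deviated together from the rest, and a pairing by number is not established. Whether the replicates came from separate exposure vessels is not stated for each library, and p-values measure the spread between these libraries. The fits were also run on simulated counts, whose outcome is not given here. A minimum of recovered genes was required there of DESeq2 and the likelihood ratio test, but not of the QL test.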

Additional observations from a re-analysis of the deposited data

How the results depend on the processing

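The number of genes called depended on the tool and on single libraries. In females at 0.5 µg/L, where the edgeR QL test called 0 genes, DESeq2 called 7, the likelihood ratio test 5, and leaving out 1 library gave 0 to 3 (3 without control replicate 2). In females at 50 µg/L (1 gene) DESeq2 called 143, the likelihood ratio test 133, no filter on low counts 3, only the groups compared 33, flow cell as a covariate 0, and leaving out 1 library 0 to 72 (72 without control replicate 2). Without the first replicate of both groups, a choice made after seeing the data, it was 0. In males at 0.5 µg/L (0 genes) DESeq2 called 3 and the likelihood ratio test 7. In males at 50 µg/L (128 genes) DESeq2 called 1975, the likelihood ratio test 1576, no filter 273, only the groups compared 42, flow cell as a covariate 0, and leaving out 1 library 0 to 4077 (4077 without control replicate 1). Against male control replicate 1 alone it was 27, where the lone control is assumed to vary like the other groups.

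With the replicate number as a block, 0 genes were called in females at 0.5 µg/L, 0 at 50 µg/L, 0 in males at 0.5 µg/L, 1668 in males at 50 µg/L and 11210 between the sexes. The block changed no call of a protease that was tested.

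Of 721 alternative values for 53 fold changes, 680 kept their direction and side of the threshold, or for untested ones moved by less than the spread of replicates. Another 20 untested values moved by more, 2 became a call and 19 tested values turned in direction without being called. Of the 318 untested values, 8 turned in direction, all of genes other than the 5 proteases. Both new calls were of LOC111716204 between the sexes at 0.5 µg/L (-1.89 without male replicate 1, and -1.47 with adjusted p = 0.0457 by edgeR with only the groups compared). Leaving out 1 library, the log2 fold change in females at 0.5 µg/L ran from -0.71 to 0.28 for LOC111701514, -0.60 to 0.12 for LOC111703433, -0.29 to 0.51 for LOC111707394 and -0.32 to 0.070 for LOC111706413. In females at 50 µg/L it ran from -0.54 to 0.17 for LOC111703433, -0.11 to 0.29 for LOC111706413, -0.086 to 0.71 for LOC111707394 and -0.32 to 0.67 for LOC111701514. For LOC111716204 in males at 50 µg/L it ran from -1.46 to 0.82. With flow cell as a covariate it was 0.78 for LOC111703433 and -0.092 for LOC111706413 in females at 50 µg/L, and 0.70 for LOC111715307 in males at 50 µg/L. Without the first replicates of both female groups it was 0.027 for LOC111697677 and -0.15 for LOC111706413 at 50 µg/L. Against male control replicate 1 alone it was -0.64 for LOC111716204 and -0.27 for LOC111715307 in males at 0.5 µg/L. The cause of these changes was not tested. Depth limits the low values, such as 5 counts of LOC111703434 in each of a pair of females at 50 µg/L and 3 and 6 counts of LOC111706413 in a pair of males at 50 µg/L.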
